A study of Danio rerio with 14 samples.

Results

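The genes described here encode the proteins of the cytosolic ribosome. They were taken by annotated symbol: a symbol that starts with rpl or rps and a digit, or with rplp, without the kinases of the rps6k family. This gave 72 of the 21124 genes tested, 38 of them named for large subunit proteins, 29 for small subunit proteins and 3 (rplp0, rplp2 and rplp2b) for the acidic stalk. The rule also took rps19bp1 and rpl7l1, whose products are not proteins of the mature ribosome, and both are kept as members and named as such. Where a gene had several probe sets, the one with the highest mean stood for it, and 36 of the 72 members had more than 1.

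Liver RNA was measured on 14 single-colour ZebGene 1.1 ST arrays, a whole-transcriptome design for zebrafish, and a value is a log2 level per probe set. HBx,Src(p53-), HBx(p53-) and Src(p53-) fish carried the hepatitis B virus protein HBx, the tyrosine kinase Src or both, driven in hepatocytes by the fabp10a promoter, and all 3 lines also carried a p53 mutation, whereas WT fish were of the AB strain. Feeding began at 3 months of age and ran for 8 weeks. Artemia were given to overfed fish (DIO) as 3 feeds of 2 mL a day, which is 12-fold the normal ration of Artemia. Fish on high fat food (FAT) had the normal ration of Artemia plus 3 feeds of 0.22 g of this food. The normal ration of Artemia (NOR) was 1 feed of 0.5 mL. All groups also had powdered feed once a day. The study pools DIO and FAT as the obesity diet.

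HBx,Src(p53-) had 2 DIO and 2 NOR arrays and no FAT array, HBx(p53-) and Src(p53-) had 1 array for each diet, and WT had 1 DIO, 1 FAT and 2 NOR arrays. The effects of HBx or Src cannot be told apart from that of the p53 mutation, since no p53 mutant line without a transgene was measured. The labels do not say how many fish stand behind an array. The study's legends count as many fish as arrays, so p-values rest on few fish. Where DIO and FAT are pooled, the spread behind a p-value also holds the difference between these 2 arrays of a line. Where genotype and diet are fitted as additive terms, it also holds differences between genotypes in their diet change. A liver sample is a mixture of cells, in which fewer cells of a type and less RNA per cell cannot be told apart. All 16 hepatocyte markers were measured, and their mean level was 12.01 to 12.02 in DIO and 12.14 to 12.27 in NOR HBx,Src(p53-) arrays, 12.14 to 12.30 in HBx(p53-), 11.99 to 12.23 in Src(p53-) and 11.52 to 12.16 in WT arrays.

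The ribosome is built of a small subunit, which reads the mRNA and checks the pairing of tRNA, and a large subunit, which joins the amino acids. The acidic stalk on the large subunit recruits the GTPases of translation, and growing or dividing cells make the proteins of both subunits in matched amounts, so that their mRNAs usually move together. In vertebrates these mRNAs begin with a terminal oligopyrimidine (TOP) tract, through which mTORC1 and the RNA-binding protein LARP1 control mainly their translation. Some members have a second task: in mammals RPL5 and RPL11, held in a complex with 5S rRNA, bind and inhibit Mdm2, the ubiquitin ligase of p53. Close paralogs such as rpl22 and rpl22l1, rpl5a and rpl5b, or rps27.1, rps27.2 and rps27l are similar in sequence, so their probes may bind each other's RNA.

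The members were among the brightest genes of the arrays. The median of their mean levels was 11.003, against 3.11 over all genes, and 44 of the 72 members (61.1%) had a mean over 10, against 263 genes in all (1.25%). The 5 brightest were rpl15 (13.25), rpl7 (12.94), rps15 (12.79), rpl37 (12.70) and rps3 (12.54), and among the 5 dimmest were rps9 (6.56), rps19 (6.21), rpl10 (6.16) and rpl8 (5.81). Levels of different probe sets depend on the probes as well as on the RNA, so this order is one of brightness and not of abundance. Of the probe sets of rpl37 4 held equal values, as did 3 of those of rps24.

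Most members varied little. The median SD over the 14 arrays was 0.21 (log2) for the members and 0.39 for all genes, and 13 members spanned less than 0.5 from the lowest to the highest array. Among genes with a mean level between 10 and 12 the median SD was 0.18 for 27 members and 0.39 for 177 other genes, while between 12 and 15 it was 0.19 for 17 members and 0.16 for 42 other genes. Among the 5 most variable members were rps27l (SD 0.65), rpl7l1 (0.64), rpl22l1 (0.61) and rps19bp1 (0.56), each with a mean level below 9. Arrays of the same group were seldom far apart. In each of the 3 groups with 2 arrays, 1 member was more than 2-fold apart (rpl7l1 in NOR HBx,Src(p53-) and rps27l in NOR WT among them). Over all genes this held for 7.46% in DIO HBx,Src(p53-), 14.2% in NOR HBx,Src(p53-) and 16.3% in NOR WT. Such arrays could still differ in direction. Of the 72 members 54 were higher on the first than on the second NOR HBx,Src(p53-) array (median difference +0.09). The first array was higher for 23 members in DIO HBx,Src(p53-) (median -0.06) and for 35 in NOR WT (median -0.03). Uneven splits of the members thus also arose between arrays of the same genotype and diet.

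**Figure D1:**
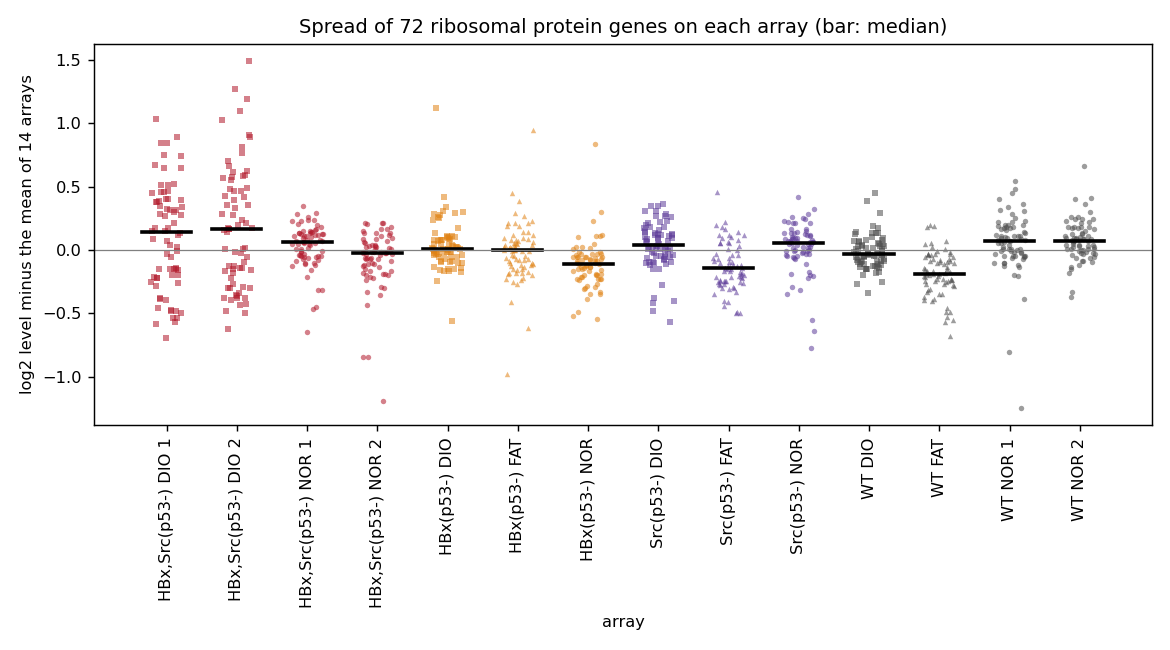
Log2 level of each of the 72 members minus its own mean over 14 arrays (y axis) on each array (x axis), with a bar at the median of each array. The points of both overfed HBx,Src(p53-) arrays are spread more widely than those of the other 12 arrays, and the lowest median is that of WT FAT (-0.19).

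Across the 14 arrays the members as a set moved by small amounts. The median deviation from a member's own 14-array mean was 0.14 and 0.16 on the DIO and 0.06 and -0.02 on the NOR arrays of HBx,Src(p53-). It was 0.01 (DIO), -0.00 (FAT) and -0.11 (NOR) in HBx(p53-), 0.04, -0.15 and 0.06 in Src(p53-), and -0.03 (DIO), -0.19 (FAT) and 0.07 on both NOR arrays of WT. The WT FAT array had 8 members above their own mean, and was the lowest of the 14 arrays for 17 members. The second overfed HBx,Src(p53-) array was the highest of the 14 for 25 members, while the first was the lowest for 16.

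No member passed an adjusted p of 0.05 (limma, Benjamini-Hochberg over all genes tested) in any of the 14 comparisons that were fitted, and between 0 and 27 had an unadjusted p under 0.05. Over all genes, the share called ranged from 0% to 0.459% for higher and from 0% to 0.0379% for lower levels, both at their highest in HBx,Src(p53-) against WT over diets. It was 0.00947% higher and 0.00473% lower in overfed HBx,Src(p53-), 0.00947% higher under normal diet in both HBx,Src(p53-) and Src(p53-) against WT, 0.0568% higher and 0.00947% lower in HBx(p53-) and 0.0284% higher and 0.00473% lower in Src(p53-) over diets. The smallest adjusted p of a member was 0.121, for rpl22l1 under overfeeding in HBx,Src(p53-). The accounts that follow therefore describe levels and directions that did not pass the test.

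The comparison that asks what overfeeding does in fish with both transgenes showed members that did not shift as a set but divided. Against the mean of their own NOR arrays, the SD over members was 0.52 and 0.59 on the overfed HBx,Src(p53-) arrays, and 0.16 to 0.28 on the 6 obesity diet arrays of the other genotypes. In HBx,Src(p53-), 41 of the 72 members were higher (56.9%, against 44.9% of all genes) and 31 lower (43.1%, against 55.1% of all genes) in DIO than in NOR arrays, with a median of +0.15 on the log2 scale (-0.05 over all genes). Their typical size of change was 0.38, against 0.29 over all genes. At an unadjusted p under 0.05 stood 18 members that were higher (25.0%, against 4.11% of all genes) and 9 that were lower (12.5%, against 6.56% of all genes). Without any 1 of the 4 arrays of the line these counts were lower. A fit that leaves 1 array in a group is also less precise, so this does not show which arrays carried the changes. With 1 array left out at a time, 40 to 43 members were higher, and the median ranged from 0.10 to 0.16.

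The division was clearest against the whole series. Both overfed HBx,Src(p53-) arrays lay above all 12 other arrays for 29 members (40.3%, against 4.24% of all genes) and below all 12 for 17 members (23.6%, against 3.28% of all genes), so that 26 members lay between. This count was chosen after the values were seen and is a description, with no test. It did not rest on 1 of the arrays: the first overfed array alone lay above the 12 arrays for 32 members (10.3% of all genes) and below for 20 (9.89% of all genes), and the second alone for 29 (9.39% of all genes) and 20 (9.81% of all genes). The NOR arrays of the same line lay above all 12 others for 0 members (2.37% of all genes) and below for 0 (1.11% of all genes). These 12 include the overfed arrays, so the 29 members could not be counted as above here, nor the 17 as below. The count for the NOR arrays is therefore no separate contrast.

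**Figure D2:**
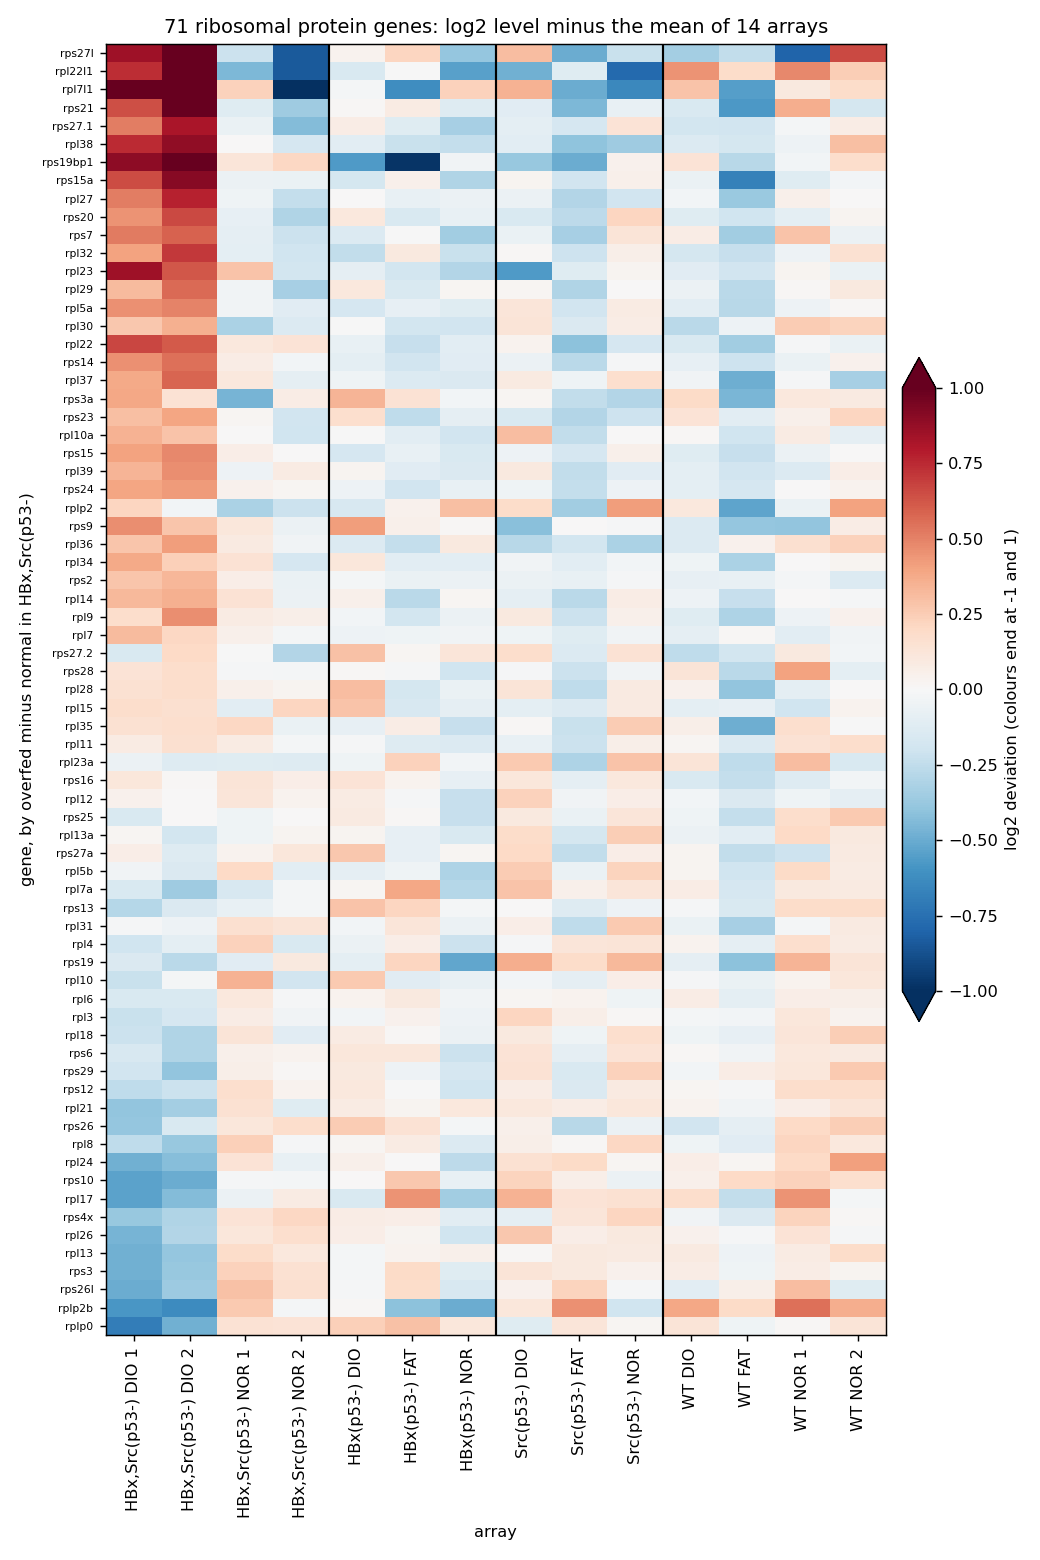
Log2 deviation from the 14-array mean (colour, ending at -1 and 1) for 71 of the 72 members (rows, ordered by overfed minus normal in HBx,Src(p53-)) on each array (columns, grouped by genotype). In the 2 leftmost columns, the overfed HBx,Src(p53-) arrays, 29 members lie above and 17 below all 12 other arrays.

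Both subunits took part in the division. Of the 38 large subunit members 16 lay above and 9 below all 12 other arrays, and of the 29 small subunit members 11 lay above and 6 below. Of the 3 stalk members 2 lay below, and both members outside the mature ribosome lay above. The division was also present among the brightest members: of the 17 with a mean level between 12 and 15, 15 lay outside all 12 other arrays (88.2%), against 11 of 42 other genes (26.2%) of this brightness. Among 27 members with a mean level between 10 and 12 it was 17 (63.0%), against 47 of 177 other genes (26.6%). Between 8 and 10 it was 9 of 16 members (56.25%), against 119 of 704 other genes (16.9%). Below 8 it was 5 of 12 members (41.7%), against 1366 of 20129 other genes (6.79%). Most genes are dim, so shares over all genes are lower than those of genes as bright as most members.

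Among the large subunit members, rpl22l1 stood highest. This paralog of the RNA-binding protein Rpl22 had 9.35 and 9.88 in DIO and 8.16 and 7.76 in NOR HBx,Src(p53-) arrays. Both overfed values were above those of every other array of the series, which lay between 7.76 and 9.09. The change was +1.65 ± 0.28 (log2, SE; 3.14-fold), with an adjusted p of 0.121 in limma. Its paralog rpl22 had 7.38 and 7.32 in DIO and 6.82 and 6.85 in NOR arrays, a change of +0.52 ± 0.23 (adjusted p = 0.464, limma), and both overfed values were again the highest of the 14.

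rpl38, a large subunit protein known in mice for its part in the translation of Hox mRNAs, had 9.70 and 9.85 in DIO and 8.96 and 8.79 in NOR HBx,Src(p53-) arrays. Its highest value elsewhere was 9.26, in WT NOR, so that the overfed arrays did not overlap any other. The change was +0.90 ± 0.23 (1.86-fold, adjusted p = 0.24, limma). Other large subunit members above all 12 arrays were rpl27 (+0.78 ± 0.23), rpl32 (+0.70 ± 0.23), rpl23 (+0.68 ± 0.25), rpl29 (+0.63 ± 0.24) and rpl30 (+0.54 ± 0.22), and rpl37, rpl39, rpl36, rpl34, rpl14, rpl9 and rpl7 were so with smaller changes of +0.25 to +0.47.

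On the other side, rpl13 had 11.85 and 11.95 in DIO and 12.51 and 12.44 in NOR HBx,Src(p53-) arrays, a change of -0.58 ± 0.20 (adjusted p = 0.354, limma). On the other 12 arrays it ranged from 12.28 to 12.51. Its overfed values were the lowest of the series, for a gene that varied little elsewhere. Also below all 12 arrays were rpl26 (-0.52 ± 0.21), rpl17 (-0.50 ± 0.29), rpl24 (-0.49 ± 0.21), rpl8 (-0.43 ± 0.21), rpl21 (-0.38 ± 0.21), rpl18 (-0.27 ± 0.21), rpl3 (-0.21 ± 0.20) and rpl6 (-0.20 ± 0.20).

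Among the small subunit members, rps27.1 had 11.38 and 11.69 in DIO and 10.81 and 10.43 in NOR HBx,Src(p53-) arrays. The other arrays lay between 10.43 and 11.005, below both overfed values. The change was +0.91 ± 0.23 (1.88-fold, adjusted p = 0.24, limma). Its paralog rps27l, which in mammals is a target of p53 and binds Mdm2, had 8.32 and 8.97 in DIO and 7.26 and 6.63 in NOR arrays (+1.70 ± 0.48, adjusted p = 0.279, limma), but its NOR WT arrays were 1.46 apart, at 6.67 and 8.14. The third paralog, rps27.2, had 6.501 and 6.85 in DIO and 6.64 and 6.36 in NOR arrays, which overlapped.

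rps21, a small subunit protein, had 8.98 and 9.37 in DIO and 8.22 and 7.99 in NOR HBx,Src(p53-) arrays. The highest value on the other arrays was 8.71. The change was +1.07 ± 0.28 (2.11-fold, adjusted p = 0.249, limma). rps15a (+0.84 ± 0.26), rps20 (+0.75 ± 0.22), rps7 (+0.71 ± 0.24) and rps14 (+0.48 ± 0.21) were also above all 12 arrays, as were rps23, rps15, rps24 and rps2 with changes of +0.30 to +0.44. rps14 is known in humans for the anaemia that follows the loss of 1 copy of the gene in a myelodysplastic syndrome.

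Among the small subunit members that were lower, rps3, which sits at the mRNA entry channel, had 12.06 and 12.17 in DIO and 12.78 and 12.70 in NOR HBx,Src(p53-) arrays. The other 12 arrays ranged from 12.42 to 12.78. The change was -0.62 ± 0.20 (0.65-fold, adjusted p = 0.332, limma). Below all 12 arrays were also rps26l (-0.66 ± 0.23), rps4x (-0.51 ± 0.21), rps10 (-0.50 ± 0.21), rps12 (-0.34 ± 0.20) and rps29 (-0.33 ± 0.22).

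The stalk members were lower in part. rplp0, the protein that anchors the stalk, had 11.81 and 12.02 in DIO and 12.64 and 12.64 in NOR HBx,Src(p53-) arrays. On all 12 other arrays it ranged from 12.38 to 12.79. The change was -0.73 ± 0.21 (0.60-fold, adjusted p = 0.281, limma), the lowest of the 72. rplp2b, one of the acidic proteins that rplp0 holds, had 9.93 and 9.88 in DIO and 10.77 and 10.49 in NOR arrays (-0.72 ± 0.25, adjusted p = 0.348, limma). rplp2 had 9.51 and 9.27 in DIO and 8.98 and 9.08 in NOR arrays (+0.36 ± 0.30, adjusted p = 0.768, limma) and lay within the range of the other arrays. rplp1 and rpl35a are not analysed here.

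Members named for a second task or for another known role did not all move in 1 direction. rps27l, described above, was higher (+1.70 ± 0.48), with both overfed arrays above all 12 others. rpl5a had 12.06 and 12.10 in DIO and 11.57 and 11.49 in NOR HBx,Src(p53-) arrays (+0.55 ± 0.21, adjusted p = 0.398, limma) and was above all 12 other arrays. rpl5b had 11.01 and 10.90 in DIO and 11.24 and 10.94 in NOR arrays, and rpl11 had 12.59 and 12.67 in DIO and 12.59 and 12.49 in NOR arrays. rps6, whose protein is phosphorylated by the S6 kinases downstream of mTORC1, had 11.72 and 11.58 in DIO and 11.92 and 11.91 in NOR arrays (-0.27 ± 0.20, adjusted p = 0.725, limma). rps19, a gene of Diamond-Blackfan anaemia in humans, had 6.06 and 5.94 in DIO and 6.10 and 6.30 in NOR arrays (-0.20 ± 0.24, adjusted p = 0.865, limma).

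The 2 members outside the mature ribosome were both higher. rpl7l1, a homolog of rpl7 that in human cells takes part in making the large subunit, had 8.20 and 8.25 in DIO and 7.39 and 5.97 in NOR HBx,Src(p53-) arrays (+1.55 ± 0.49, adjusted p = 0.323, limma), and its NOR arrays were 1.42 apart. rpl7 itself had 13.25 and 13.15 in DIO and 12.99 and 12.92 in NOR arrays. rps19bp1, which encodes a protein that binds Rps19, had 7.52 and 7.81 in DIO and 6.75 and 6.83 in NOR arrays (+0.88 ± 0.25, adjusted p = 0.279, limma).

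**Figure D3:**
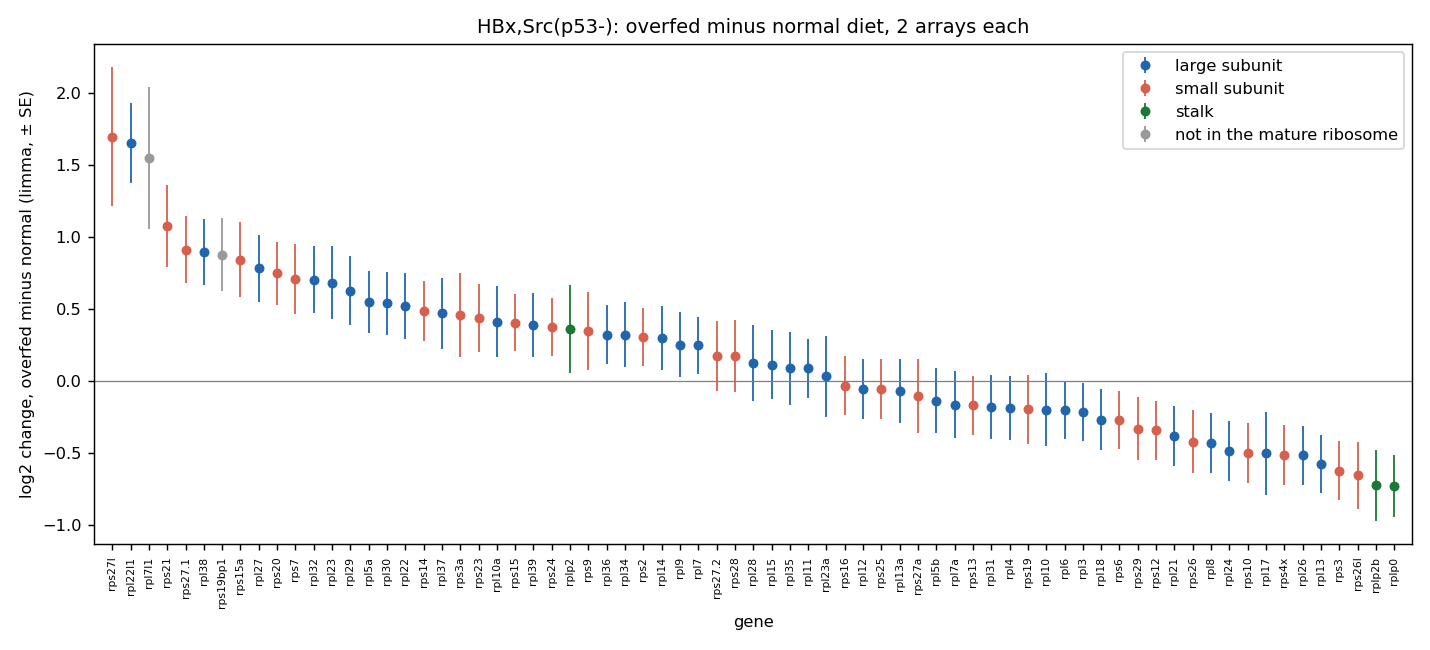
Log2 change (y axis, limma estimate ± SE) of 71 of the 72 members (x axis, ordered by size) in overfed against normal diet HBx,Src(p53-) arrays, 2 arrays each, coloured by subunit. Both subunits are found at both ends, 2 of the 3 stalk members (rplp0 at -0.73 and rplp2b at -0.72) are the lowest, and no change passed the test.

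Other probe sets of the same genes mostly pointed the same way. Of 47 further probe sets, which belong to 36 members, 41 had the sign of the probe set that stood for the gene. For members at an unadjusted p under 0.05 these were 17 of 17, from 15 members. Some of these probe sets may share probes or hold equal values, so they are not independent measurements.

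The translation factors that work with the ribosome showed no common direction in this comparison either, and none was called. Of 20 elongation and termination factors 9 were higher and 11 lower (median -0.09), and of 47 initiation factors 19 were higher and 28 lower (median -0.11). Both overfed arrays lay above all 12 others for 2 elongation factors (eef1b2 and eef1da) and below for 3 (eef2b, eif5a and gspt1l), where the shares over all genes are 4.24% above and 3.28% below. The same held for 6 initiation factors above (among them eif6, which keeps the subunits apart, and eif3m) and 6 below (among them eif3c, eif4g1a and the poly(A)-binding protein pabpc1a). Of 9 other mRNAs with a TOP tract 6 were higher and 3 lower (median +0.22), with naca, btf3 and nap1l4a above all 12 arrays. rack1, a protein of the small subunit with another name, had 12.67 and 12.48 in DIO and 12.57 and 12.59 in NOR arrays.

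Of 8 genes of the ribosomal protein checkpoint and of large subunit assembly, 4 were higher and 4 lower (median +0.16), and none was called. mdm2 stood at +1.72 ± 0.37 (adjusted p = 0.206, limma) and rrs1, which helps to bring the 5S particle into the large subunit, at +1.83 ± 0.87 (adjusted p = 0.503, limma). For both the overfed arrays lay above all 12 others. nop53 (+0.88 ± 0.37) and rrp1 (+0.42 ± 0.47) were also higher. The lower ones were mdm4 (-0.81 ± 0.44), cdkn1a (-0.69 ± 1.65), bxdc2 (-0.33 ± 0.35) and rpf2 (-0.10 ± 0.36). Of 30 genes of mTORC1 signalling and TOP mRNA control 14 were higher and 16 lower (median -0.02), and of 11 genes of the Myc network 4 were higher and 7 lower (median -0.37). Among the 14 higher genes of the mTORC1 list, eif4ebp1, a translation repressor that mTORC1 inactivates, was at +1.14 ± 0.31 (adjusted p = 0.268, limma). It is 1 of 30 genes, of which 16 were lower, so it gives no direction for the list. Both overfed arrays lay above all 12 others for 0 of the 30 genes and below for 1, tsc1a (4.24% and 3.28% of all genes). For the 11 genes of the Myc network these counts were 0 and 0.

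Among markers of other cells, those of the exocrine pancreas moved most in this comparison. Of 16 measured markers of the exocrine pancreas, tissue that lies beside the liver in zebrafish, 15 were higher (median +0.87), with a mean level of 6.12 to 6.89 in DIO and 5.55 to 5.96 in NOR HBx,Src(p53-) arrays. None of them was below 3 on all arrays. Of 16 leukocyte markers 7 were higher and 9 lower (median -0.12; mean 3.84 to 3.998 in DIO and 4.04 to 4.34 in NOR arrays), and 3 of them were below 3 on all arrays. Of 16 germ cell markers 11 were higher (median +0.06; 2.48 to 2.92 in DIO and 2.02 to 2.97 in NOR arrays), and 9 were below 3 on all arrays. Red blood cell markers had 6 of 9 higher (median +0.19; 4.96 to 4.97 in DIO and 4.41 to 4.79 in NOR arrays) and intestine markers 3 of 8 (median -0.11), with 4 of these below 3 on all arrays. Both overfed arrays lay below all 12 others for 3 of 16 hepatocyte markers, apoa1b, cp and apobb.1 (3.28% of all genes), and above for 0. The hepatocyte markers are bright as a set (mean 12.01 to 12.02 in these DIO arrays), and the share over all genes is one of mostly dim genes. Of other genes with a mean level between 10 and 12, 26.6% lay above or below all 12 arrays, and between 12 and 15 it was 26.2%. Of the pancreas markers 0 lay above and 0 below, and of the leukocyte markers 1 lay above (cd74b) and 1 below (mpx). The part of these cells in the division of the ribosomal proteins was not tested.

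In WT fish the obesity diet arrays had lower mRNA levels of the ribosomal protein genes almost throughout. In DIO and FAT against NOR arrays, 70 of the 72 members were lower (97.2%, against 48.1% of all genes), with a median of -0.17 (+0.02 over all genes). Here and in the comparisons below, shares over genes as bright as the members were not computed, and most genes are dimmer. No member had an unadjusted p under 0.05 (limma; 1.69% of all genes were lower and 2.65% higher at this level), and the smallest adjusted p was 0.999, so that each difference was small beside the spread. Both obesity diet arrays lay below both NOR arrays for 39 members (54.2%, against 13.2% of all genes), but for 13 with quantile normalization (18.1%, against 13.97% of all genes), 31 with centring and 33 with the mean of all probe sets. The 2 arrays differed: WT DIO was below the NOR mean for 55 members (median -0.08) and WT FAT for 69 (median -0.24). Without WT FAT the median of the members was -0.08.

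The lowest t values in WT belonged to rps19, rpl30 and rps25. rps19 had 6.12 (DIO) and 5.80 (FAT) in obesity diet and 6.55 and 6.34 in NOR arrays (-0.48 ± 0.24, adjusted p = 0.999, limma), and rpl30 had 11.47 and 11.69 in obesity diet and 11.99 and 11.96 in NOR arrays (-0.40 ± 0.22, adjusted p = 0.999, limma). In both genes the groups did not overlap. rps25 was at -0.35 ± 0.21, and rpl7 (+0.03 ± 0.20) was 1 of the 2 members that were not lower. Of the initiation factors 35 of 47 were also lower (median -0.28), as were 8 of the 9 other TOP mRNAs (median -0.22) and 15 of 20 elongation factors (median -0.10). Germ cell markers were lower in 13 of 16 (mean 1.78 to 1.81 in obesity diet and 1.99 to 2.30 in NOR arrays), pancreas markers higher in 12 of 16 (4.33 to 4.88 in obesity diet and 3.91 to 4.70 in NOR arrays), and their part was not tested.

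In HBx(p53-) fish most members had the other sign. In DIO and FAT against the single NOR array, 58 of 72 members were higher (80.6%, against 51.2% of all genes), with a median of +0.15 (+0.01 over all genes), and 66 were higher under quantile normalization. The DIO array was above NOR for 61 members (median +0.17) and the FAT array for 49 (median +0.10). The comparison rests on 1 NOR array, which itself had 12 members above their 14-array mean. The largest t values belonged to rps19, rpl7a and rpl17: rps19 had 6.11 (DIO) and 6.42 (FAT) in obesity diet and 5.69 in NOR (+0.58 ± 0.29, adjusted p = 1, limma), rpl7a was at +0.48 ± 0.29 and rpl17 at +0.50 ± 0.35. rps19bp1 had 6.06 and 5.64 in obesity diet and 6.58 in NOR (-0.73 ± 0.31, adjusted p = 1, limma), the 1 member with an unadjusted p under 0.05 (2.42% of all genes were lower and 1.33% higher at this level). rpl36 (-0.29 ± 0.25) and rplp2 (-0.36 ± 0.37) followed it. All 9 red blood cell markers were higher in the obesity diet arrays (median +0.47; mean 4.44 to 5.48 in obesity diet arrays and 4.32 in NOR), and their part was not tested.

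In Src(p53-) fish 51 of 72 members were lower under the obesity diet (70.8%, against 48.1% of all genes), with a median of -0.09 (+0.02 over all genes), and 0 members had an unadjusted p under 0.05 (limma; 2.86% of all genes lower and 2.20% higher). Here the 2 obesity diet arrays disagreed. DIO was above NOR for 38 members (median +0.01), and FAT was below NOR for 57 (median -0.19), so that without the FAT array the median was +0.01. The members with the largest t were rplp2b, with 10.63 (DIO) and 10.97 (FAT) in obesity diet and 10.31 in NOR (+0.49 ± 0.30), rpl22l1 (+0.47 ± 0.34) and rpl7l1 (+0.57 ± 0.61). Those with the lowest were rps20, with 11.23 and 11.12 in obesity diet and 11.60 in NOR (-0.42 ± 0.27), rps19bp1 (-0.48 ± 0.31) and rplp2 (-0.50 ± 0.37). Of the 16 pancreas markers 14 were higher (median +1.25; mean 5.08 to 5.49 in obesity diet arrays and 4.16 in NOR), and their part was not tested.

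**Figure D4:**
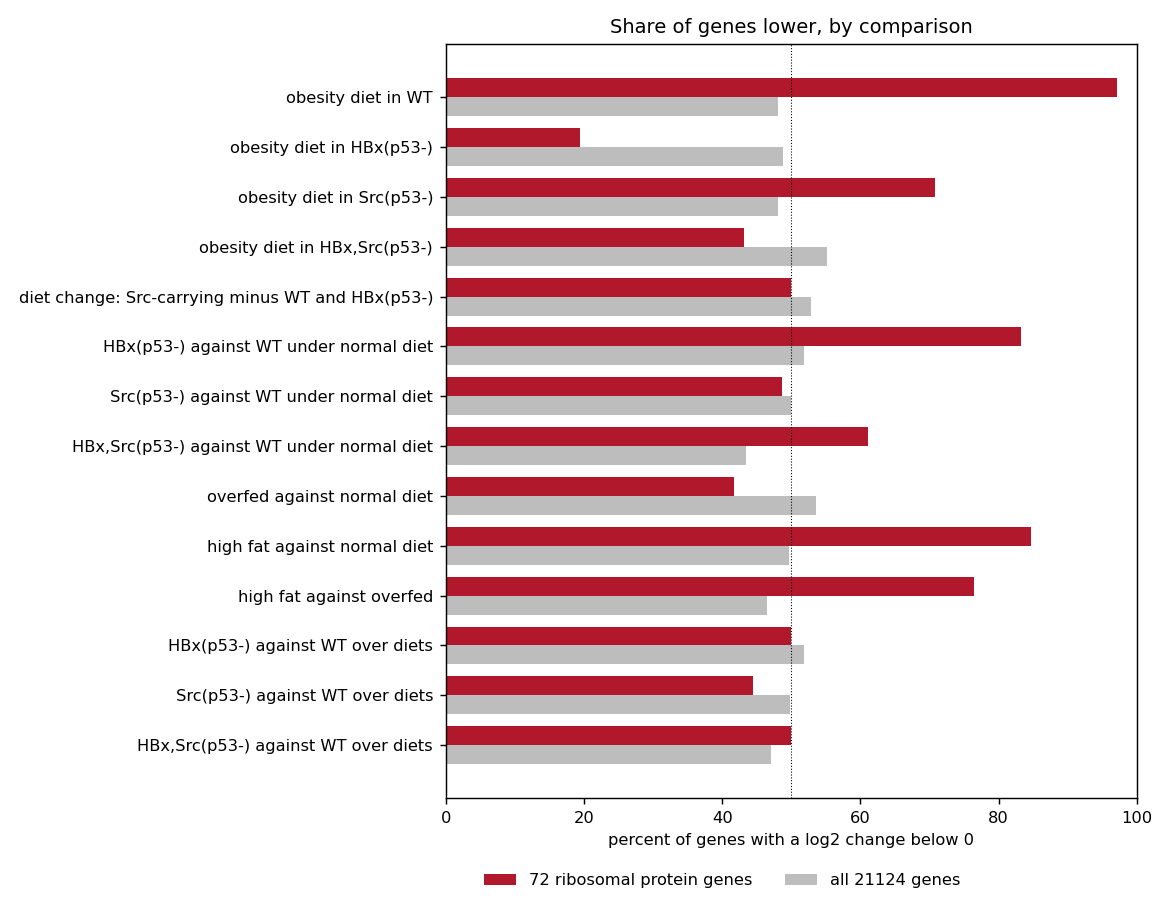
Percent of genes with a log2 change below 0 (x axis) in each of the 14 comparisons (y axis), for the 72 members (red) and all 21124 genes (grey). The share of members is far above that of all genes in WT (97.2% against 48.1%) and in high fat against normal diet (84.7% against 49.6%), and below it in HBx(p53-) under the obesity diet (19.4% against 48.8%). Most of all genes are dimmer than the members, and genes of like brightness are not shown apart.

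The difference between the diet change of the Src-carrying lines and that of WT and HBx(p53-) was fitted as 1 contrast. It was above 0 for 36 members and below 0 for 36 (over all genes 47.1% and 52.9%), with a median of -0.00 (-0.03 over all genes). At an unadjusted p under 0.05 stood 3 members, all positive (4.17%, against 3.33% of all genes): rpl22l1 (+0.85 ± 0.31, adjusted p = 0.548, limma), rpl7l1 (+1.47 ± 0.55, adjusted p = 0.569, limma) and rpl38 (+0.60 ± 0.26, adjusted p = 0.616, limma). The lowest were rplp0 (-0.44 ± 0.24), rps3 (-0.36 ± 0.23) and rps4x (-0.34 ± 0.23). In the lines that carry Src the change of rpl22l1 was +1.65 in HBx,Src(p53-) and +0.47 in Src(p53-), and that of rplp0 was -0.73 in HBx,Src(p53-) and -0.020 in Src(p53-). In HBx(p53-), which carries no Src, the change was +0.47 for rpl22l1, as in Src(p53-), and +0.15 for rplp0. In WT rpl22l1 had 9.05 (DIO) and 8.79 (FAT), against 9.09 and 8.85 (NOR).

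With the 2 feeding methods separated and genotype as a term, most members were lower on high fat food than on either other diet, though not in HBx(p53-), where the FAT array lay above the NOR array for 49 members. In FAT against NOR 61 members were lower (84.7%, against 49.6% of all genes), with a median of -0.10 (+0.00 over all genes), and 0 had an unadjusted p under 0.05 (limma; 1.35% of all genes lower and 2.52% higher). Without the WT FAT array 28 were higher, against 11 with it, and the median was -0.054. In FAT against DIO 55 were lower (76.4%, against 46.5% of all genes), with a median of -0.15 (+0.03 over all genes). In DIO against NOR 42 were higher (58.3%, against 46.4% of all genes), with a median of +0.07 (-0.02 over all genes). All 3 comparisons share arrays. Initiation factors were lower in 38 of 47 in FAT against NOR (median -0.25), and all 9 other TOP mRNAs were lower (median -0.21), with 0 of either list called.

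All 3 FAT arrays lay below all 6 NOR arrays for 7 members, rpl9, rpl14, rpl22, rpl28, rps14, rps24 and rps19bp1 (9.72%, against 0.876% of all genes), and above them for 0 (0.909% of all genes). The count below was 3 with quantile normalization, 4 with the mean of all probe sets and 6 with centring. rpl28, a large subunit protein, had 10.16 in HBx(p53-), 10.09 in Src(p53-) and 9.94 in WT FAT arrays, and 10.24 to 10.43 in the 6 NOR arrays. Its difference was -0.28 ± 0.14 (adjusted p = 1, limma) against NOR and -0.43 ± 0.15 (adjusted p = 0.708, limma) against DIO, where it was 1 of 2 members with an unadjusted p under 0.05 (2.78%, against 2.21% of all genes), the other being rpl7l1 (-1.03 ± 0.39). By t, rplp2 (-0.47 ± 0.22) was the lowest in FAT against NOR, followed by rpl28 and rpl31 (-0.26 ± 0.16), and rpl22l1 (+0.52 ± 0.33) and rps27l (+0.25 ± 0.43) were among the highest. All 16 pancreas markers were higher in FAT than in NOR (median +1.00), and their part was not tested.

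In DIO against NOR over the 4 genotypes the highest members were rpl22l1 (+0.75 ± 0.27), rpl7l1 (+0.74 ± 0.31) and rps27l (+0.74 ± 0.35), and the lowest rpl13 (-0.26 ± 0.14), rps4x (-0.26 ± 0.14) and rplp0 (-0.27 ± 0.16). At an unadjusted p under 0.05 were 2 members, both higher (2.78%, against 2.41% of all genes). In FAT against DIO rps26l (+0.31 ± 0.20), rps10 (+0.20 ± 0.18) and rplp0 (+0.19 ± 0.20) were the highest, and rpl22 (-0.37 ± 0.17) stood next to rpl28 and rpl7l1 at the low end. HBx,Src(p53-) supplied 2 of the 5 DIO arrays and no FAT array.

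The genotypes were compared under normal diet and over all diets. Under normal diet HBx(p53-) was lower than WT for 60 of 72 members (83.3%, against 51.9% of all genes), with a median of -0.17 (-0.02 over all genes). It rests on 1 HBx(p53-) array, the same one that stood below its obesity diet arrays. At an unadjusted p under 0.05 stood 1 member that was higher (1.39%, against 3.96% of all genes) and 3 that were lower, rplp2b, rpl22l1 and rps19 (4.17%, against 2.09% of all genes). rplp2b had 10.02 in HBx(p53-) and 11.06 and 10.87 in WT (-0.95 ± 0.30, adjusted p = 0.599, limma), and rps19 had 5.69 in HBx(p53-) and 6.55 and 6.34 in WT (-0.75 ± 0.29, adjusted p = 0.719, limma). All 16 pancreas markers were higher (median +2.60; mean 6.62 in HBx(p53-) and 3.91 to 4.70 in WT), as were 14 of 16 hepatocyte markers (median +0.32; 12.30 in HBx(p53-) and 11.77 to 11.92 in WT), and their part was not tested.

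Src(p53-) under normal diet showed no common direction: 37 members were higher and 35 lower than in WT (51.4% and 48.6%, against 50.1% and 49.9% of all genes), with a median of +0.01, and under quantile normalization 29 were higher. rpl22l1 (-1.14 ± 0.34, adjusted p = 0.703, limma) was the 1 member at an unadjusted p under 0.05 (1.39%, against 1.78% of all genes), followed by rplp2b (-0.66 ± 0.30) and rpl36 (-0.51 ± 0.25). rpl37 (+0.34 ± 0.30), rps20 (+0.25 ± 0.27) and rpl31 (+0.23 ± 0.27) were the highest.

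In HBx,Src(p53-) under normal diet 44 members were lower than in WT (61.1%, against 43.5% of all genes), with a median of -0.07 against +0.06 over all genes. Centring each array on its median moved all genes by -0.20 and left 1 member higher, and quantile normalization left 12 higher, with a median of the members of -0.27 against -0.13 over all genes after centring. rpl22l1 was the 1 member at an unadjusted p under 0.05 (1.39%, against 1.95% of all genes lower and 6.54% higher), at -1.01 ± 0.28 (adjusted p = 0.338, limma), followed by rpl30 (-0.46 ± 0.22) and rplp2 (-0.44 ± 0.30). rps16 (+0.17 ± 0.21) and rpl37 (+0.18 ± 0.24) were among the highest, and both were below 0 with centring. All 16 pancreas markers were higher than in WT (median +1.44; mean between 5.55 and 5.96 in HBx,Src(p53-), against 3.91 to 4.70 in WT), as were 15 of 16 leukocyte markers (median +0.90; mean between 4.04 and 4.34 in HBx,Src(p53-), against 3.07 to 3.25 in WT), and their part was not tested.

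rpl22l1 had lower values in each mutant line, outside overfed HBx,Src(p53-), than in WT. It had 8.16 and 7.76 in NOR HBx,Src(p53-), 8.46 (DIO), 8.60 (FAT) and 8.06 (NOR) in HBx(p53-), and 8.12, 8.48 and 7.83 in Src(p53-), against 9.05 (DIO), 8.79 (FAT), 9.09 and 8.85 (NOR) in WT. All 8 of these mutant arrays lay below all 4 WT arrays, which was so for 1 of the 72 members (1.39%, against 0.204% of all genes). With quantile normalization it was so for 0 members (0.308% of all genes). The overfed HBx,Src(p53-) arrays, at 9.35 and 9.88, lay above all WT arrays. The mean was 9.61 ± 0.37 (SD, n = 2) in overfed and 7.96 ± 0.28 (n = 2) in normal diet HBx,Src(p53-). Over all diets it was 8.95 ± 0.15 (n = 4) in WT, 8.37 ± 0.28 (n = 3) in HBx(p53-) and 8.15 ± 0.33 (n = 3) in Src(p53-). The last 3 means pool diets, so these 5 values give no order of the lines at a like diet. Against WT under normal diet rpl22l1 was at -1.14 in Src(p53-), -1.01 in HBx,Src(p53-) and -0.91 in HBx(p53-). The values of the 3 mutant lines outside overfed HBx,Src(p53-) overlapped.

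Over all diets the members showed no common direction in the 3 lines against WT. Members were higher and lower in equal number in HBx,Src(p53-) (36 and 36; 53% and 47% of all genes) and in HBx(p53-) (36 and 36; 48.2% and 51.8% of all genes), and 40 were higher in Src(p53-) (55.6%, against 50.2% of all genes), with medians of +0.01, -0.01 and +0.02. These splits moved with the scaling, to 25 higher in HBx,Src(p53-) with centring and 22 in Src(p53-) with quantile normalization. At an unadjusted p under 0.05 stood 3 members in HBx,Src(p53-), 2 that were higher (2.78%, against 8.70% of all genes) and 1 that was lower (1.39%, against 3.31% of all genes), 1 higher and 1 lower in HBx(p53-) (3.21% and 2.63% of all genes), and 1 lower in Src(p53-) (1.93% of all genes). All 16 pancreas markers were higher than in WT in HBx,Src(p53-) (median +1.73) and in HBx(p53-) (median +2.50), and their part was not tested.

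In HBx,Src(p53-) over diets, rpl22 (+0.43 ± 0.16, adjusted p = 0.305, limma), rpl37 (+0.38 ± 0.17) and rps15a (+0.49 ± 0.23) were the highest, and rplp2b (-0.59 ± 0.25, adjusted p = 0.367, limma), rps10 (-0.38 ± 0.17) and rpl24 (-0.37 ± 0.18) the lowest. In HBx(p53-), rps9 (+0.36 ± 0.21) and rps27.2 (+0.25 ± 0.17) were among the highest, and rplp2b (-0.66 ± 0.26, adjusted p = 0.795, limma), rpl22l1 (-0.68 ± 0.34) and rps19bp1 (-0.51 ± 0.27) were the lowest. In Src(p53-), rpl37 (+0.28 ± 0.18), rps19 (+0.31 ± 0.23) and rps16 (+0.19 ± 0.15) were the highest, and rpl22l1 (-0.91 ± 0.34, adjusted p = 0.828, limma), rps23 (-0.30 ± 0.16) and rpl36 (-0.33 ± 0.18) the lowest. The stalk gene rplp2b was below all 4 WT arrays (10.70 to 11.06) on all 3 HBx(p53-) arrays, at 10.52 (DIO), 10.10 (FAT) and 10.02 (NOR), as were 2 of the 72 members in all (2.78%, against 3.19% of all genes), and on both overfed HBx,Src(p53-) arrays, at 9.93 and 9.88.

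**Figure D5:**
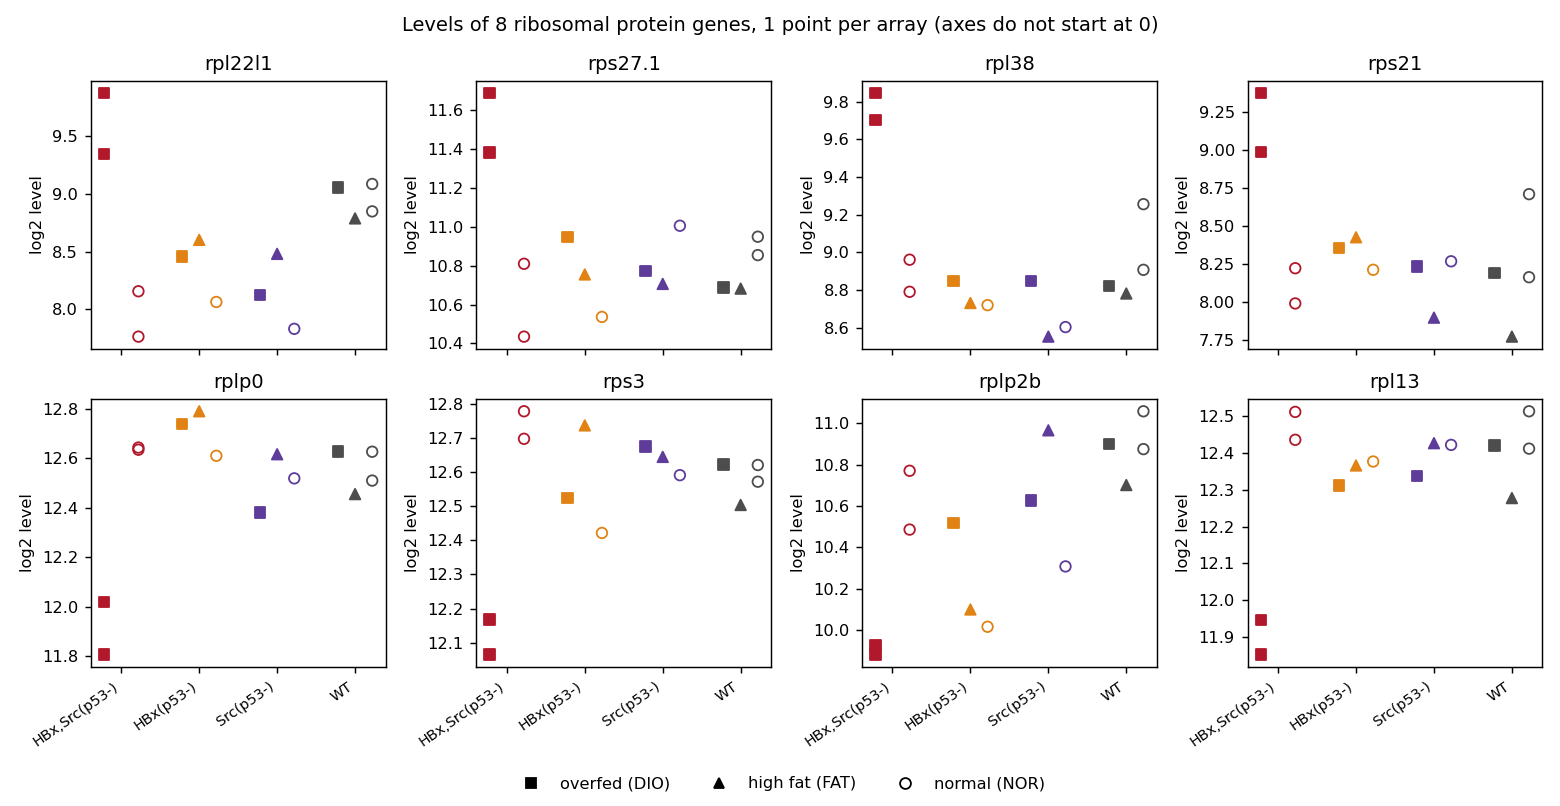
Log2 level (y axes, which do not start at 0) of 8 members by genotype (x axis), 1 point per array, with overfed as squares, high fat as triangles and normal diet as open circles. Both overfed HBx,Src(p53-) arrays lie above all others for rpl22l1, rps27.1, rpl38 and rps21 and below all others for rplp0, rps3, rplp2b and rpl13.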

How the data were processed

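Total RNA of 14 zebrafish liver samples was hybridised to ZebGene 1.1 ST arrays. The deposited log2 values were made by the authors with RMA in oligo (background correction, quantile normalization and a median polish per probe set). Their versions, scan dates and the genome build are not given in the sources used here, so no batch was tested and no coordinates are printed. Quantile normalization equalises the arrays, and these values therefore hold no measure of total RNA content. The number of arrays limits the precision. All 14 sample columns were used.

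Of 75212 probe sets, 30358 carried 1 gene symbol in the platform annotation, 1015 several and 43839 none. Probe sets with several symbols were not used, 6 of which list a member. The probe set with the highest mean stood for each of 21124 genes, and 71 of the 72 members matched a RefSeq symbol. No filter on low values was applied. Another 12 RefSeq symbols that fit the rule are not analysed here.

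limma 3.58.1 in R 4.3.3 was fitted to all 14 arrays, with 8 cell means (genotype by normal or obesity diet, 6 residual degrees of freedom) for 8 comparisons, and with additive genotype and diet (8 residual degrees of freedom) for 6. P-values were adjusted by Benjamini-Hochberg over all genes, and a gene was called at an adjusted p under 0.05. A group of 1 array is assumed to vary like the others. The fit was tested on simulated data. Alternatives were the mean of all probe sets, centring, quantile normalization, a mean level of at least 4, a variance trend with a robust prior, a replicate block, 11 cell means and leaving out each array. Named members are the 3 with the largest t in each direction per comparison, the 5 brightest, dimmest and most variable, and the stalk, checkpoint, paralog and anaemia genes. Other members are named where a count or group is described. The members, lists and counts of arrays outside others were chosen with earlier results of these data known. Sequences were not used here, and 1 member that enters the counts is not reported by name.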

Additional observations from a re-analysis of the deposited data

Results flagged for a closer look

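The median diet change of the members was +0.32 (log2) higher in HBx(p53-) than in WT. It drew attention because both obesity diet arrays of HBx(p53-) had a positive median against their NOR array (+0.17 for DIO and +0.10 for FAT), while both of WT had a negative one (-0.08 for DIO and -0.24 for FAT). The difference was not tested, and HBx(p53-) has a single NOR array.

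The median deviation and 20 members, picked after values were seen, were examined for 1 array far from the rest in genotypes and diets with 4 to 10 arrays. Of 84 such groups 2 held one, where chance alone gives about 1 in 20. The level of rps6 in the HBx(p53-) NOR array was 11.67, the lowest of 6 NOR arrays, with the nearest at 11.91. The level of rps19 in the Src(p53-) DIO array was 6.57, the highest of 5 DIO arrays, with the nearest at 6.12.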

How the results depend on the processing

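No member was called in any of the 14 comparisons under any of the 22 alternatives, and the smallest adjusted p of a member was 0.0782 (HBx(p53-) against WT over diets, with the replicate block) among the settings with all arrays and 0.0982 (overfed HBx,Src(p53-), without normal diet array 1) with an array left out. Quantile normalization moved the median of the members to 0.23 for the obesity diet in HBx(p53-), -0.25 for HBx(p53-) and -0.17 for HBx,Src(p53-) against WT under normal diet, and -0.067 for HBx,Src(p53-) over diets. Centring moved it to 0.24 for overfed HBx,Src(p53-), -0.27 for HBx,Src(p53-) against WT under normal diet and -0.16 over diets. The counts of members above and below all 12 other arrays, 29 and 17, were 28 and 15 with the mean of all probe sets, 24 and 18 with centring and 26 and 15 with quantile normalization. Of the other such counts, the members below normal diet under the obesity diet in WT, 39, were 13 with quantile normalization, and those above, 1, were 2 with centring. The members below normal diet under high fat food, 7, were 4 with the mean of all probe sets and 3 with quantile normalization, and the 1 member below WT on 8 mutant arrays became 0 with quantile normalization. These alternatives were added after the data were seen.
With 1 array left out at a time, the median of the members ranged from -0.24 (without WT DIO) to -0.079 (without WT FAT) for the obesity diet in WT, from 0.10 to 0.17 in HBx(p53-), from -0.19 (without DIO) to 0.0083 (without FAT) in Src(p53-) and from 0.10 to 0.16 in HBx,Src(p53-). It ranged from -0.05 to 0.06 for the difference of the Src-carrying lines, from -0.17 to -0.15, -0.01 to 0.01 and -0.14 to -0.01 for HBx(p53-), for Src(p53-) and for both transgenes against WT under normal diet, the last value without HBx,Src(p53-) normal diet array 2. It ranged from 0.03 to 0.10 for overfed against normal diet, from -0.18 (without HBx(p53-) FAT) to -0.054 (without WT FAT) for high fat against normal diet and from -0.24 (without HBx(p53-) FAT) to -0.10 for high fat against overfed. Over diets it ranged from -0.094 (without HBx(p53-) FAT) to 0.058 (without HBx(p53-) NOR) in HBx(p53-), from -0.02 to 0.05 in Src(p53-) and from -0.03 to 0.07 in HBx,Src(p53-).
Of single members, rpl7 in WT was at -0.12 with the mean of all probe sets and at -0.013 with quantile normalization, and between -0.019 and 0.081 with 1 array left out. In HBx(p53-) against WT under normal diet rps9 lay between -0.062 and 0.40 and rplp2 between -0.10 and 0.37 with 1 array left out, and rps16 and rpl37 in HBx,Src(p53-) against WT were at -0.026 and -0.019 with centring. The cause was not tested. The count of all genes called in HBx,Src(p53-) over diets was 105, against 67 with centring, 70 with quantile normalization and 29 (without WT DIO) to 250 (without HBx,Src(p53-) normal diet array 2) with 1 array left out. In overfed HBx,Src(p53-) it was 3, against 0 to 6 with all arrays and 0 to 24 with 1 left out. For HBx(p53-) over diets it was 14, against 4 to 26 with 1 left out, and in HBx,Src(p53-) under normal diet 2, against 0 to 41. For Src(p53-) over diets it was 7, against 0 to 10 over all alternatives, and in the other 9 comparisons, with 0 to 2, it was 0 to 14.

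Same-numbered arrays are not known to share more than the number. Their deviations correlated at 0.13 (DIO with NOR HBx,Src(p53-)), -0.23 (DIO HBx,Src(p53-) with NOR WT) and -0.03 (NOR HBx,Src(p53-) with NOR WT). Since no scan dates are given, these values cannot show whether any arrays shared a batch. With the replicate number as a block 0 members were called in each comparison, and all genes called in overfed HBx,Src(p53-) were 6, against 3. A planned search of promoter sequences for a motif was not run.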
